A study of Mus musculus with 23 samples.

Results

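The 9 genes described here mark B cells and the antibody-secreting plasma cells that arise from them: Ms4a1, Cd79a, Cd79b, Pax5, Pou2af1, Jchain, Mzb1, Sdc1, and Tnfrsf17. They were taken by name from a table of 48897 mouse genes, and all 9 were found in it. The table covers 23 libraries of poly(A) RNA from male BALB/c mice, aged 4 to 6 weeks. In the 9 tumor-bearing mice, cells of the mouse colon carcinoma line CT26 had been placed in the serosa of the cecum, and after 3 weeks each mouse gave its liver (pre-metastatic liver) and its primary tumor. The 5 control livers came from sham-operated mice that received the cell-free medium at the same site and carried no tumor. The model therefore rests on a single transplanted line, grown in the gut wall of young mice, and each library is RNA of a whole piece of tissue, in which fewer cells of a type and less RNA per cell cannot be told apart.

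B cells recognize antigen through a membrane immunoglobulin that signals through the Cd79a and Cd79b chains, and Pax5 holds their identity in place. A B cell that becomes a plasma cell shuts down much of the B cell program and turns to making immunoglobulin in bulk, with Jchain joining IgA and IgM into polymers, Mzb1 helping the chains fold, and Tnfrsf17 (BCMA) relaying survival signals. The normal liver holds few B cells and plasma cells, and its hepatocytes take up polymeric IgA and release it into bile.

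Promoter sequence was available for 6 of the 9 genes, from RefSeq on GRCm38.p6, and not for Ms4a1, Cd79b, or Mzb1. The 250 bases before the start of Cd79a, Pou2af1, and Jchain are shown because these genes rose and fell together across the mice (the rank correlations are given further on) and because Pou2af1 is the coactivator that binds the octamer factors Oct1 and Oct2. Capitals mark a match, on either strand, to TGCAAAT, the octamer without its first base, or to GGAAGT, a core that ETS family factors bind. The full octamer ATGCAAAT, which contains the shorter motif, was looked for as well.
Cd79a: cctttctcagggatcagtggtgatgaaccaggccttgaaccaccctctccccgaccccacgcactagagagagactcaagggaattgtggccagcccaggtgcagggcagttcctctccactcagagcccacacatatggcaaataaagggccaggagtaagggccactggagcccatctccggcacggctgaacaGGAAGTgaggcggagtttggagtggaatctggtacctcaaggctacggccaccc
Pou2af1: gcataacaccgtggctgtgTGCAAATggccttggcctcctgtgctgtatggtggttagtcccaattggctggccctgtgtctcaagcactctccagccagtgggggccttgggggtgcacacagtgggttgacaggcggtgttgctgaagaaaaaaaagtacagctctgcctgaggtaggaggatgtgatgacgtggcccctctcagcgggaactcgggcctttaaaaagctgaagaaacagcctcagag
Jchain: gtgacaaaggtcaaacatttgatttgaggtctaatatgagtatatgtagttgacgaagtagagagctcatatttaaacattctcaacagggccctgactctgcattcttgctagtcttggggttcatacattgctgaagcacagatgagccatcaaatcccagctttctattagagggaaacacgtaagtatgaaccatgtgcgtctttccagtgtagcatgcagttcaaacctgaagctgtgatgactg
The windows lie at chr7:24897247-24897496 on the plus strand for Cd79a, at chr9:51213440-51213689 on the plus strand for Pou2af1, and at chr5:88527898-88528147 on the minus strand for Jchain, each read 5′ to 3′ along its gene. The shorter motif stood in the Pou2af1 window, 231 to 225 bases before the start, and in 4.02% of the 27025 genes searched, counting a gene when any of its starts has the motif. The ETS core stood in the Cd79a window, 54 to 49 bases before the start, and in 22.2% of all genes. The full octamer was in none of the 6 windows and in 1.81% of all genes. Genes on 1 chromosome were left out of the search.

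Library totals ranged from 44587556 to 79773163 counts, and their medians were 56982650 for control, 55500961 for pre-metastatic, and 55927997 for tumor libraries. Hepatocyte markers fitted the tissue labels, with 7 genes summing to 32559 to 66039 RPKM (counts scaled for gene length and library total) in the livers and to 6.46 to 268 RPKM in the tumors. The livers fell into an early and a late phase on genes of the circadian clock, the late phase holding control mouse C7 and tumor-bearing mice M1, M2, M10, and M12. Scaling mattered more for the tumors than for the livers. With TMM factors, which assume that most genes do not differ, the median gene differed by 0.13 on the log2 scale between the tumor and the pre-metastatic liver and by 0.18 between the tumor and control liver, and with library totals alone, the scaling of RPKM, by 1.30 and 1.26. Between the livers these medians were 0.01 and -0.07. Fold changes below are those of edgeR's quasi-likelihood test with TMM factors, with p adjusted by Benjamini and Hochberg over all genes tested, and a gene is called at an adjusted p under 0.05. Levels are given as RPKM, and the values with library totals are set beside the fold changes where they matter. Nothing in the labels gives a batch.

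At the level of RPKM, which allows genes to be compared per length, Sdc1 stood far above the other genes in every group, with medians of 105 RPKM in the control livers, 69.7 in the pre-metastatic livers, and 28.7 in the tumors. Sdc1 encodes syndecan-1 (CD138), which plasma cells carry but which hepatocytes and other epithelial cells also make, and its level exceeded that of Jchain, the next gene in order, whose medians were 2.28, 5.32, and 2.77 RPKM. Cd79b, Cd79a, and Mzb1 followed between 0.225 and 1.29 RPKM. The medians of Ms4a1 and Pou2af1 lay between 0.0869 and 0.479 RPKM. Pax5 and then Tnfrsf17 closed the order in both livers, whereas in the tumor Tnfrsf17 moved up to the fourth place with 0.565 RPKM and Pax5, at 0.0666 RPKM, came last. Neighbours in this order overlapped in their ranges within each group, apart from Sdc1 in all 3 groups and Jchain in control liver.

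**Figure D1:**
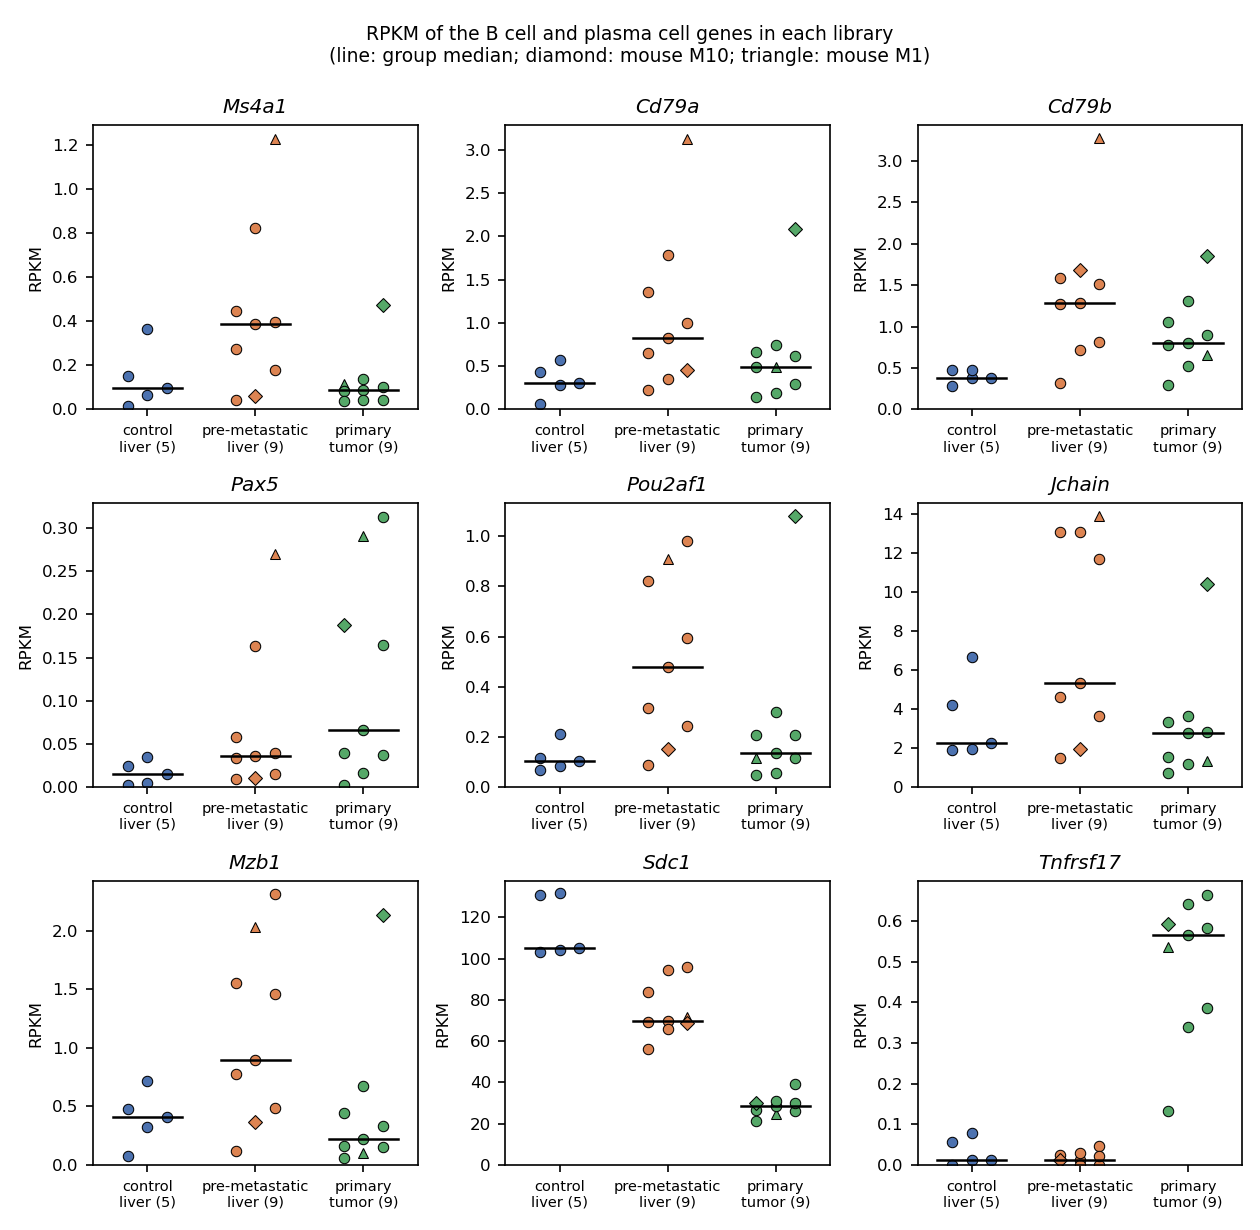
RPKM of each gene (vertical axes, linear from 0, a scale of its own per gene) in the 5 control livers, 9 pre-metastatic livers, and 9 primary tumors. Each point is a library, the line is the group median, diamonds mark mouse M10 and triangles mouse M1. The tumor of M10 and the liver of M1 stand at the top of several panels, and only Sdc1 and Tnfrsf17 separate the tumors from all livers.

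Pre-metastatic liver was set against control liver to ask which B cell and plasma cell genes differed before metastases were visible. Called higher were Cd79b, by 1.87 on the log2 scale (SE 0.42, adjusted p = 0.00373), Pou2af1 by 2.23 (SE 0.57, adjusted p = 0.00791), and Cd79a by 1.79 (SE 0.62, adjusted p = 0.0381). Sdc1 was the exception and fell by 0.53 (SE 0.15, adjusted p = 0.0141). The plasma cell genes Jchain and Mzb1 and the B cell genes Ms4a1 and Pax5 pointed upward without passing the test. Of the 8 genes tested, 3 were called higher, where 17.7% of all 16987 genes tested were, and 1 lower, where 13.3% of all genes were. The remaining 4 had an unadjusted p under 0.05 only. The median log2 fold change of the 8 genes was 1.74, against 0.01 over all genes.

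Ms4a1 (CD20, chr19:11250603-11266151, minus strand) is a surface protein of B cells that plasma cells lose. Its RPKM in the control livers was 0.0162, 0.0644, 0.0952, 0.150, and 0.367, and in the pre-metastatic livers it ranged from 0.0432 to 1.23 around a median of 0.387. The groups overlapped widely, with 5 of the 9 pre-metastatic livers above every control liver, and the log2 fold change of 1.69 (SE 0.76) did not pass (adjusted p = 0.102). Leaving out control mouse C4, which had the highest control value, brought it to 2.45 and an adjusted p of 0.0415.

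Cd79a and Cd79b are the signalling chains of the B cell receptor. Cd79a (chr7:24897511-24902197, plus strand) was at 0.0590, 0.276, 0.304, 0.437, and 0.576 RPKM in the control livers and at 0.227 to 3.13 RPKM in the pre-metastatic livers, with a median of 0.820. Cd79b (chr11:106311341-106314562, minus strand) was at 0.284, 0.377, 0.382, 0.470, and 0.473 RPKM in the controls and at 0.317 to 3.28 RPKM in the pre-metastatic livers, with a median of 1.29. For Cd79b, 8 of 9 pre-metastatic livers lay above all controls, and only mouse M6, at 0.317 RPKM, did not. For Cd79a, 6 of 9 did. The Cd79b call held whichever library was left out. The Cd79a call was lost without any one of control mice C1, C4, C5, or C6 or tumor-bearing mice M1, M7, or M8 (adjusted p of 0.0526 to 0.0814). The exact two-sided rank-sum test on RPKM gave p = 0.0120 for Cd79b and p = 0.0420 for Cd79a.

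The group holds 2 regulators of transcription. Pax5 (chr4:44526269-44710440, minus strand) maintains B cell identity and was read by only 1 to 17 counts in a control liver and by 5 to 116 counts in a pre-metastatic liver, with 116 in mouse M1 and 59 in mouse M8. These libraries also held the highest Ms4a1, at 1.23 and 0.823 RPKM. The log2 fold change of Pax5 was 2.12 (SE 0.87, adjusted p = 0.0762) and fell to 1.48 without mouse M1. Pou2af1 (chr9:51213690-51240079, plus strand), the octamer coactivator that B cells and plasma cells share, was at 0.0687, 0.0839, 0.103, 0.117, and 0.213 RPKM in the controls and at 0.0874 to 0.981 RPKM in the pre-metastatic livers, with a median of 0.479. In 7 of 9 pre-metastatic livers it exceeded every control, and its call held in all 14 fits that left out a library.

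Among the plasma cell genes, Jchain (chr5:88519809-88527897, minus strand) was the most read after Sdc1. It stood at 1.91, 1.98, 2.28, 4.19, and 6.70 RPKM in the control livers. The pre-metastatic livers ranged from 1.50 to 13.9 RPKM with a median of 5.32, and 4 of them (M1, M7, M8, and M12, at 11.7 to 13.9 RPKM) lay above all controls while M2 and M10, at 1.50 and 1.96 RPKM, lay near the lowest controls. The log2 fold change was 1.30 (SE 0.56, adjusted p = 0.0881), and it passed without mouse M2 (1.45, adjusted p = 0.0403) and among the early-phase livers (1.71, adjusted p = 0.0198). Mzb1, a chaperone of the endoplasmic reticulum in B cells and plasma cells that lies on chromosome 18, was at 0.0765, 0.323, 0.411, 0.474, and 0.716 RPKM in the controls and at 0.117 to 2.31 RPKM in the pre-metastatic livers. Its log2 fold change of 1.59 (SE 0.63, adjusted p = 0.0651) passed without mouse M2 (1.74, adjusted p = 0.0230) or without mouse M10 (1.71, adjusted p = 0.0480).

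Sdc1 (chr12:8771396-8793716, plus strand) ran the other way. The control livers were at 103, 104, 105, 131, and 132 RPKM, and all 9 pre-metastatic livers were lower, from 56.1 to 96.1 RPKM with a median of 69.7. It was the only gene of the group whose RPKM did not overlap between the livers, as was the case for 10.9% of all genes tested. Tnfrsf17 (chr16:11313174-11320074, plus strand) had 0, 1, 1, 5, and 7 counts in the control livers and 0 to 3 counts in the pre-metastatic livers, and it was too sparse to be tested there. The tests by DESeq2 and limma-voom drew the line elsewhere: DESeq2 also called Ms4a1 (adjusted p = 0.0429), Pax5 (adjusted p = 0.0235), and Mzb1 (adjusted p = 0.0186) higher, whereas limma-voom called only Cd79b higher (adjusted p = 0.0186). Both called Sdc1 lower.

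Genes with related functions showed where the difference between the livers was broad. Of 12 other surface genes of B cells, 11 were called higher in pre-metastatic liver (median log2 fold change 1.97), led by Fcmr, the receptor for IgM, with 2.61 (adjusted p = 0.0160), and Ly6d with 2.31 (adjusted p = 0.0459). In B cell receptor signalling, 9 of 12 genes tested were higher, Cd79a and Cd79b among them, and the largest change was in the adaptor Blnk with 2.10 (adjusted p = 0.00509). Plcg2, the phospholipase below it, rose by 1.83 (adjusted p = 0.000133). Blnk, Plcg2, Btk, and Syk, which myeloid cells share, were all among the genes called higher. So were the surface genes Cd180, Cd72, and Cd37, which macrophages and other leukocytes also express. Which cells account for these rises was not tested. Of 11 B lineage transcription factors 5 were higher, led by Bcl11a with 2.53 (adjusted p = 0.0226) and followed by Pou2af1 and Spib with 2.04 (adjusted p = 0.0425). Of the 11 homing genes tested 6 were higher, among them Cxcr5, the receptor that leads B cells to follicles, with 2.47 (adjusted p = 0.0239), and the chemokine Ccl19 with 2.16 (adjusted p = 0.0470). In the germinal centre list 3 of 5 genes tested were higher, namely Gcsam with 2.12 (adjusted p = 0.0200), S1pr2 with 1.01 (adjusted p = 0.000159), and Fas with 0.85 (adjusted p = 0.00162). None of the genes in these 5 lists was called lower. With library totals the counts were the same except in the homing list, where 4 genes were higher.

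Genes that serve plasma cells were followed in 4 further lists. Of 12 genes of the secretory machinery, 5 were higher, led by Fkbp11 with 1.63 (adjusted p = 0.000884), Sec11c with 0.62 (adjusted p = 0.000591), and Edem2 with 0.58 (adjusted p = 0.00161), and the median over the 12 was 0.43. Of the 3 transcription factors that drive plasma cells, Prdm1 (Blimp-1) rose by 1.08 (SE 0.36, adjusted p = 0.0316), Irf4 was at 1.06 (SE 0.39, adjusted p = 0.0514), and Xbp1, which hepatocytes also use, was at 0.26 (SE 0.13, adjusted p = 0.131). With library totals Prdm1 no longer passed (1.01, adjusted p = 0.0595). Among the survival genes, Tnfrsf13b (TACI) rose by 2.14 (adjusted p = 0.000814), Il7 by 1.62 (adjusted p = 0.00511), and Tnfsf13 (APRIL), a ligand of Tnfrsf17, by 0.85 (adjusted p = 0.00768). The ligand Tnfsf13b (BAFF) was at 0.22 (adjusted p = 0.716), its receptor Tnfrsf13c at 1.28 (adjusted p = 0.191), and Flt3l at -0.27 (adjusted p = 0.290), and Il6, like Tnfrsf17, was too low to test. In the list of immunoglobulin transport and binding, none of 5 genes tested by edgeR was called, DESeq2 and limma-voom did not call Jchain either, and Jchain was the only one with an unadjusted p under 0.05 in edgeR.

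Markers of other cells moved as well. All 4 pan-leukocyte genes were higher, led by Cd52 with 1.62, Coro1a with 1.52, and Ptprc (CD45) with 1.44, and their summed level was 6.21 to 14.8 RPKM in control liver and 16.5 to 47.7 RPKM in pre-metastatic liver. Of 7 macrophage genes 6 were higher (Cd14 by 1.95), with sums of 85.8 to 150 RPKM against 133 to 339 RPKM. Of 5 neutrophil genes tested 4 were higher (S100a8 by 2.32), with sums of 6.39 to 17.9 RPKM against 7.25 to 118 RPKM. None of the 8 T cell genes was called (sums of 1.17 to 3.16 against 1.25 to 8.36 RPKM), and 3 of 5 plasmacytoid dendritic cell genes tested were, of which Ly6d and Spib also stand in the B cell lists (89.9 to 169 against 154 to 313 RPKM). The chemokines and stroma of lymphoid tissue were higher in 3 of 4 genes tested, Ccl19, Cr2, and Cxcl13 (only Cr2 with library totals), with sums of 1.78 to 6.16 against 2.06 to 27.0 RPKM. Of 5 colon epithelium genes tested 2 were higher, Krt20 by 3.67 (adjusted p = 0.0350) and Vil1 by 2.99 (adjusted p = 0.0402), from 0 to 7 counts in the control livers, while the sum of that list was 98.5 to 135 RPKM in control and 83.4 to 128 RPKM in pre-metastatic liver. None of 6 smooth muscle genes was called by edgeR (sums of 2.88 to 10.2 against 3.50 to 14.1 RPKM), and of 7 hepatocyte genes Tat alone was, with -1.74 (adjusted p = 0.000241). No marker in these lists was at 0 in every library of either liver group. Their part in the changes of the B cell genes was not tested. Per 100 RPKM of Ptprc, Cd79a was at 5.43 to 71.4 in control liver and at 12.4 to 76.9 in pre-metastatic liver, with medians of 24.2 and 32.3, so that 7 of 9 pre-metastatic livers lay within the range of the controls. For Ms4a1 the medians were 10.5 and 12, and for Jchain 313 and 253.

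The primary tumor was compared with the pre-metastatic liver of the same 9 mice. On the TMM scale, 7 of the 9 genes were lower in the tumor, 1 was higher, and Pax5 was not called, where 39.5% and 43.8% of all 19749 genes tested were called lower and higher. The largest falls were in Ms4a1 and Sdc1, and the rise was in Tnfrsf17. The scale decided several of these calls. With library totals, only Ms4a1, Jchain, and Sdc1 were lower and Tnfrsf17 higher, and the share of all calls that were higher moved from 52.5% to 76.0%. A fit with the mouse as a block, which pairs the tumor with its liver, gave the same calls as the unpaired fit for all 9 genes.

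**Figure D2:**
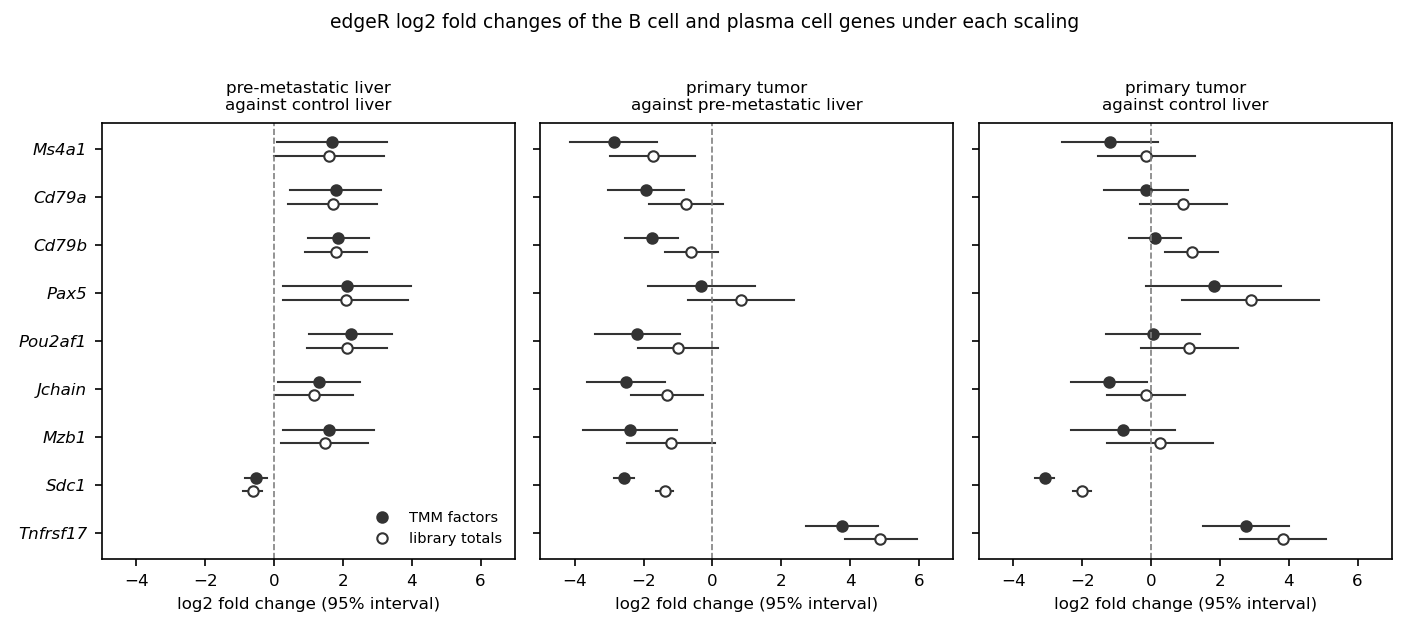
edgeR log2 fold changes (horizontal axes) of each gene in the 3 comparisons, with their 95% intervals. Filled points use TMM factors and open points library totals alone, and the dashed line is no difference. The 2 scalings nearly coincide between the livers and lie about 1 log2 unit apart in both comparisons of the tumor, and Tnfrsf17 has no value in the first panel because it was not tested there.

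Among the B cell genes, Ms4a1 was at 0.0357 to 0.473 RPKM in the tumors with a median of 0.0869, and in only 1 of the 9 mice was the tumor above the liver. Its log2 fold change was -2.87 (SE 0.61, adjusted p = 0.000232) with TMM and -1.74 (adjusted p = 0.00990) with library totals. Cd79a ranged from 0.144 to 2.08 RPKM with a median of 0.492, and the tumor exceeded the liver in 2 of 9 mice. Its log2 fold change was -1.93 (SE 0.53, adjusted p = 0.00247) with TMM and -0.76 (adjusted p = 0.163) with library totals. Cd79b ranged from 0.297 to 1.85 RPKM with a median of 0.806, and its values were -1.77 (SE 0.37, adjusted p = 0.000217) and -0.61 (adjusted p = 0.125). The fall of Ms4a1 thus passed on both scales, and those of Cd79a and Cd79b only with TMM.

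Pax5 parted from the other B cell genes. The tumors held 1 to 147 counts, 0.00222 to 0.313 RPKM with a median of 0.0666, and in 7 of 9 mice the tumor had the higher RPKM. The highest tumors were M8 at 0.313, M1 at 0.291, M10 at 0.188, and M12 at 0.164 RPKM. Of these, M1, M8, and M12 had Ms4a1 at 0.116, 0.0836, and 0.0357 RPKM, against a tumor median of 0.0869 RPKM. The log2 fold change was -0.32 (SE 0.74, adjusted p = 0.696) with TMM and 0.82 (adjusted p = 0.293) with library totals, so neither value passed and the direction differed between the scales. Per 100 RPKM of Cd79a, Pax5 reached 64.0 in tumor M8, against at most 8.25 in a control liver and 11.0 in a pre-metastatic liver. Genes that overlap Pax5 in the table (5730488B01Rik, LOC102632357, ENSMUSG00000102880.1, and Mir5120) had at most 4 counts in any library. Pou2af1, by contrast, was at 0.0488 to 1.08 RPKM in the tumors with a median of 0.136 and fell by 2.18 (SE 0.59, adjusted p = 0.00211), which became -1.0 (adjusted p = 0.0977) with library totals.

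The plasma cell genes split the same way by scale. Jchain was at 0.715 to 10.4 RPKM in the tumors, with a median of 2.77, and lower in the tumor in 7 of 9 mice. It fell by 2.51 (SE 0.54, adjusted p = 0.000282) with TMM and by 1.31 (adjusted p = 0.0202) with library totals. Mzb1 was at 0.0622 to 2.13 RPKM with a median of 0.225, and its log2 fold changes were -2.40 (SE 0.65, adjusted p = 0.00219) and -1.21 (adjusted p = 0.0718). Sdc1 was at 21.5 to 39.1 RPKM, below the liver in all 9 mice and without overlap. It fell by 2.58 (SE 0.14, adjusted p = 8.01e-13) with TMM and by 1.39 (adjusted p = 8.26e-10) with library totals. As 67.1% of all genes tested did not overlap between these tissues, and the 7 hepatocyte genes had a median log2 fold change of -10.92, the separation of Sdc1 is one that most genes share, and the part of its level that comes from plasma cells was not tested.

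Tnfrsf17, the plasma cell receptor for APRIL and BAFF, was the only gene of the group that was higher in every tumor than in every liver. The tumors held 9 to 61 counts, 0.132 to 0.665 RPKM with a median of 0.565, and the lowest was M6 at 9 counts. The log2 fold change against pre-metastatic liver was 3.77 (SE 0.50, adjusted p = 7.35e-07), a value that rests on 0 to 3 counts in each liver, and 4.88 (adjusted p = 1.32e-08) with library totals. Per 100 RPKM of Cd79a, Tnfrsf17 was at 28.4 to 352 in the tumors and at most at 22.8 in a liver of either group. Its order among the tumors was not that of the other plasma cell genes: tumor M4, with the highest Tnfrsf17, had the lowest Jchain. The downstream gene Snx29, on the same strand and 1801 bases away, was also higher in tumors (log2 fold change 0.37, adjusted p = 0.0456) and had a median of 1.12 RPKM there against 0.407 in pre-metastatic liver. Tnfrsf17 had 13.7 to 79.9 reads per 1000 reads of Snx29 in the tumors, 0 to 11.8 in the pre-metastatic livers, and 0 to 41.4 in the control livers, so that on this measure the tumors and the control livers overlapped. Reads of one gene that were counted for the other were not tested for.

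Mouse M10 set the upper end of the tumors. Its tumor had the highest Ms4a1, Cd79a, Cd79b, Pou2af1, Jchain, and Mzb1 of the 9, and without it the falls deepened to -3.52 for Ms4a1, -2.44 for Cd79a, -2.97 for Pou2af1, -3.04 for Jchain, and -3.26 for Mzb1. The liver of the same mouse was next to the lowest for Ms4a1 (0.0583 RPKM) and Jchain (1.96 RPKM) and next to the highest for Cd79b (1.68 RPKM). Among the 5 mice in the early clock phase the 7 falls were all called and those of Pou2af1 and Mzb1 reached -3.52 and -3.66, whereas among the 4 late-phase mice, M10 included, only the falls of Cd79b (-1.78, adjusted p = 0.0154) and Sdc1 (-2.64, adjusted p = 6.94e-06) passed. Ms4a1 was then at -2.31 (adjusted p = 0.0553). Whether the falls differ between the phases was not tested.

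A level per unit of Ptprc does not depend on how libraries are scaled. Ptprc, a gene of all leukocytes, rose from the pre-metastatic liver to the tumor by 1.32 (adjusted p = 2.94e-06), with medians of 2.91 and 13.8 RPKM. Per 100 RPKM of Ptprc, Cd79a had a median of 3.35 in the tumor (0.926 to 15.1) against 32.3 in pre-metastatic liver. Ms4a1 had a median of 0.438 (0.284 to 3.44) against 12, and Jchain of 12.2 (3.51 to 75.4) against 253. For each of these 3 genes, 8 of the 9 tumors lay below all pre-metastatic livers, and the exception was M10. Relative to control liver, 7 tumors for Cd79a, 8 for Ms4a1, and all 9 for Jchain lay below the lowest library. Per 100 RPKM of the T cell gene Cd3e, Cd79a had medians of 82.2 in the control livers (22.9 to 200), 418 in the pre-metastatic livers (41.3 to 2353), and 17.5 in the tumors (6.76 to 154). Only 5 of the 9 pre-metastatic livers lay above every control liver, and the highest, M7, rests on 7 counts of Cd3e.

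**Figure D3:**
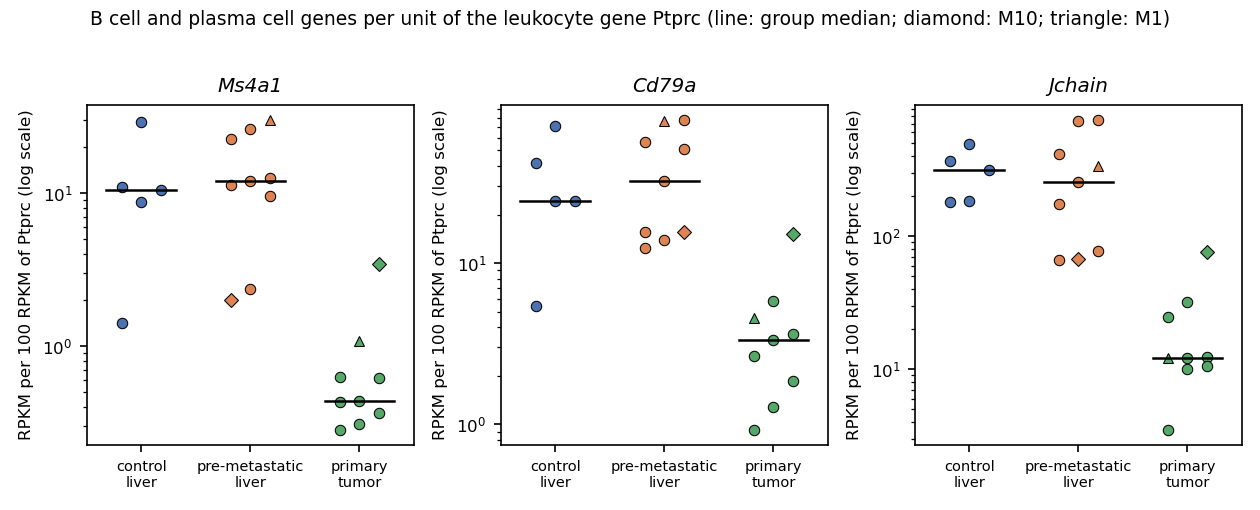
RPKM of Ms4a1, Cd79a, and Jchain per 100 RPKM of Ptprc in each library (logarithmic vertical axes), with the group median as a line, mouse M10 as a diamond, and mouse M1 as a triangle. The tumors have the lowest medians in all 3 panels, at 0.438, 3.35, and 12.2. Tumor M10 alone reaches the range of the pre-metastatic livers, and for Cd79a tumors M10 and M12 and for Ms4a1 tumor M10 reach that of the control livers.

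Other genes of the pathway divided in the tumor. Of all genes tested between the tumor and the pre-metastatic liver, 39.5% were called lower and 43.8% higher. A divided list is therefore not particular to these genes. Of 12 B cell surface genes 5 were lower and 3 higher than in pre-metastatic liver (1 and 4 with library totals). Ly6d fell by 8.88 and Fcmr by 2.48 (adjusted p = 0.00219, not called with library totals), while Cd180, Cd72, and Cd37, which macrophages and other leukocytes also express, rose by 2.16, 2.01, and 1.04. Against control liver, Ly6d was lower in the tumor by 6.58 (adjusted p = 3.55e-08), where Cd79a and Cd79b were at -0.14 and 0.11. The part of the fall of Ly6d that comes from B cells was not tested. Of 12 signalling genes 5 were lower (1 with library totals), with the B cell kinase Blk at -3.04 (adjusted p = 1.57e-05), and 6 were higher (7 with library totals), among them Blnk, Btk, Plcg2, and Syk, which myeloid cells share. Of 11 B lineage transcription factors 4 were lower, namely Pou2af1, Foxo1 (-1.81), Bach2 (-1.77), and Bcl11a (-1.39), and 3 higher (Tcf3, Spib, and Spi1). With library totals 2 of these factors, Foxo1 and Bach2, were lower and 6 higher. Of the secretory genes 11 of 12 were lower, led by Derl3 with -5.61 (adjusted p = 1.05e-07) and Dnajb11 with -1.75, but with library totals 3 were lower and 4 higher. The 7 hepatocyte genes had a median log2 fold change of -10.92 here. The part of the secretory falls that comes from plasma cells was not tested. Of 11 homing genes 7 were lower and 4 higher: Cxcl12 fell by 4.92 and Cxcl13 by 3.70, Ccl19 had 0 counts in all 9 tumors against 2 to 20 in the livers, and Cxcr4, Ccr10, and Ccr7 were among those that rose. In the germinal centre list Mybl1 rose by 4.92 and Mef2b by 3.02, and Fas fell by 2.83. Pigr, the receptor that carries polymeric immunoglobulin into bile and across the gut lining, fell by 10.97, from 311 to 555 RPKM in the pre-metastatic livers to 0.0380 to 1.61 RPKM in the tumors. Fcamr, a receptor for IgA and IgM, had 0 counts in 7 of 9 tumors.

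Of the 8 survival genes, Tnfrsf17 among them, 6 rose in the tumor and 2 fell, and of the 3 plasma cell factors 1 rose and 1 fell. Tnfsf13b was at 0.0306 to 0.219 RPKM in the pre-metastatic livers and 0.912 to 5.37 RPKM in the tumors (log2 fold change 2.89, adjusted p = 6.10e-07). Tnfrsf13b rose by 1.82 (adjusted p = 2.94e-07), Il6 by 3.12 (adjusted p = 1.98e-06), Il7 by 1.78 (adjusted p = 2.40e-06), and Flt3l by 0.41 (adjusted p = 0.0188). Tnfrsf13c, the BAFF receptor of B cells, fell by 2.57 (adjusted p = 0.000985), and by 1.41 with library totals (adjusted p = 0.0377). Tnfsf13 fell by 0.83 with TMM and was 0.37 higher with library totals (adjusted p = 0.0436), so its direction depends on the scale. Prdm1 rose by 2.76 (adjusted p = 1.17e-09), from a median of 0.0702 to 1.2 RPKM, Xbp1 fell by 2.62 (adjusted p = 1.18e-14), and Irf4 was at -0.63 (adjusted p = 0.0875) with TMM and 0.55 (adjusted p = 0.131) with library totals. In the same comparison Jchain and Mzb1 were at -2.51 and -2.40 with TMM. Which cells account for the rise of Prdm1 was not tested.

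Apart from the neutrophil list, most leukocyte markers of other kinds were higher in the tumors, where 43.8% of all genes tested were called higher. The 4 pan-leukocyte genes summed to 121 to 270 RPKM and were all called higher. Of 8 T cell genes 6 were higher (Cd28 by 1.91), with a sum of 6.94 to 29.6 RPKM. Of 7 macrophage genes 6 were higher (Cd14 by 2.07), with a sum of 587 to 1415 RPKM. Of 8 plasmacytoid dendritic cell genes 5 were higher and 1 lower, with a sum of 282 to 771 RPKM. The neutrophil list had 1 of 5 tested genes higher (Csf3r by 0.57), a median log2 fold change of -0.21, and a sum of 9.54 to 251 RPKM. Smooth muscle genes of the gut wall were higher in 3 of 6 (Smtn by 2.52) and lower in 1 (Myh11 by -1.39), with a sum of 30.2 to 57.8 RPKM against 3.50 to 14.1 RPKM in pre-metastatic liver. Of 8 colon epithelium genes 3 were higher (Krt20 by 6.99) and 4 lower (Krt8 by -6.99), with sums of 36.8 to 116 RPKM against 83.4 to 128 RPKM. The lymphoid stroma list was lower in all 4 genes tested, with a sum of 0.148 to 5.80 RPKM and Ccl19 at 0 in every tumor. Their part in the values of the B cell and plasma cell genes was not tested.

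Between the primary tumor and control liver, tissues of different mice, 3 of the 9 genes were called. Tnfrsf17 was higher by 2.76 (SE 0.59, adjusted p = 0.000436), where 44.2% of all 19320 genes tested were higher. Sdc1 was lower by 3.09 (SE 0.13, adjusted p = 3.29e-12) and Jchain by 1.21 (SE 0.52, adjusted p = 0.0409), where 38.1% of all genes were lower. The median of the 9 log2 fold changes was -0.14, against 0.18 over all genes. The tumor and the pre-metastatic liver are each set against the same 5 control livers, so these values share their controls with the comparison of the livers. All 4 pan-leukocyte, 8 T cell, and 7 macrophage genes were higher in the tumor than in control liver, as were 4 of 5 neutrophil and 5 of 8 plasmacytoid dendritic cell genes, and their part in these values was not tested.

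Sdc1 and Tnfrsf17 were the 2 genes whose RPKM did not overlap between the tumor and control liver, as was the case for 73.5% of all genes tested, and both calls held with library totals, at -2.0 (adjusted p = 1.50e-10) and 3.83 (adjusted p = 1.41e-05). The call of Jchain was fragile. It was lost without any one of control mice C5 or C7 or tumors M1, M2, M4, M5, M6, M7, or M8 (adjusted p of 0.0519 to 0.159), and with library totals its log2 fold change was -0.15 (adjusted p = 0.798). Without tumor M10 it fell by 1.72 (adjusted p = 0.000994), and Ms4a1 and Mzb1, neither of which was called with all libraries, then passed as well, at -1.82 (adjusted p = 0.00654) and -1.65 (adjusted p = 0.0110), against -1.19 (SE 0.65, adjusted p = 0.103) and -0.82 (SE 0.71, adjusted p = 0.295) with all tumors. Ms4a1 also passed without control mouse C5 (-1.50, adjusted p = 0.0403) and was at -0.44 without control mouse C4. Among the early-phase libraries Mzb1 was at -2.20 (adjusted p = 0.00476) and Jchain at -1.60 (adjusted p = 0.00517).

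For the remaining genes the scale moved the value or the call. With TMM, Cd79a was at -0.14 (SE 0.58, adjusted p = 0.831), Cd79b at 0.11 (SE 0.35, adjusted p = 0.770), and Pou2af1 at 0.05 (SE 0.64, adjusted p = 0.947). With library totals they were at 0.94 (adjusted p = 0.145), 1.19 (adjusted p = 0.00581), and 1.11 (adjusted p = 0.125), and Cd79b was then called higher, with 8 of 9 tumors above all control livers in RPKM. Pax5 was at 1.82 (SE 0.92, adjusted p = 0.0782) with TMM and was called with library totals (2.90, adjusted p = 0.00882), with DESeq2 (1.78, adjusted p = 0.0385), and without tumor M4, which had 1 count (1.98, adjusted p = 0.0317). In RPKM, 7 of 9 tumors lay above all controls for Pax5.

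Immunoglobulin constant regions give a second view of the same cells. Between the livers, 5 of 11 genes tested were higher in pre-metastatic liver: Ighg3 by 4.58 (adjusted p = 0.00593), Ighd by 3.33 (adjusted p = 0.00824), Iglc3 by 2.34 (adjusted p = 0.0101), Igkc by 2.02 (adjusted p = 0.0398), and Ighm by 1.46 (adjusted p = 0.0178). Ighg1 (3.42, adjusted p = 0.0501), Ighg2c (3.11, adjusted p = 0.0546), Iglc1 (1.67, adjusted p = 0.0551), and Ighg2b (1.55, adjusted p = 0.160) were not called, nor were Iglc2 (0.26, adjusted p = 0.708) and Igha (0.16, adjusted p = 0.857). Ighe and Iglc4 were too low to test, Iglc4 with 0 counts in all 23 libraries. Ighg1 spanned 0.941 to 217 RPKM across the pre-metastatic livers, and Igha only 3.06 to 52.3 RPKM.

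In the tumor, 10 of 11 constant regions were lower than in pre-metastatic liver with TMM, with log2 fold changes of -3.59 (Ighg1) to -1.33 (Ighm), and Ighg2c alone was not called (-1.52, adjusted p = 0.0963). With library totals 7 were lower, and Ighm (-0.13, adjusted p = 0.792), Igha (-0.27, adjusted p = 0.612), and Ighg2b (-1.33, adjusted p = 0.0596) were not. Against control liver only Iglc2 was called (-2.21, adjusted p = 0.00395). With library totals none was lower there, and Ighm, Ighg2c, and Ighg3 were higher, by 1.24 (adjusted p = 0.0482), 2.63 (adjusted p = 0.0175), and 2.59 (adjusted p = 0.0129). The remaining constant regions tested against control liver were Ighm (0.14), Ighg1 (-0.19), Ighg2b (-0.98), Ighg2c (1.58), Ighg3 (1.52), Igha (-1.30), Igkc (-0.61), and Iglc1 (-0.94). The IgG genes share much of their sequence, and BALB/c mice carry Ighg2a in place of the Ighg2c of the reference strain, so the split of reads among them is uncertain.

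As shares of all heavy chain constant region counts, Igha had a median of 41.5% in the control livers (28.1% to 59.0%), 16.4% in the pre-metastatic livers (3.52% to 38.1%), and 22.8% in the tumors (5.68% to 57.2%). Ighg1 had medians of 8.18% (3.80% to 32.4%), 43.9% (7.06% to 79.8%), and 14.9% (1.31% to 35.7%). Ighm had medians of 40.1%, 15.0%, and 29.0%. The ranges overlapped between all groups, and these shares were not tested. They do not depend on the scaling of libraries, but they cover reads and not cells, since a plasma cell holds far more immunoglobulin RNA than a B cell.

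**Figure D4:**
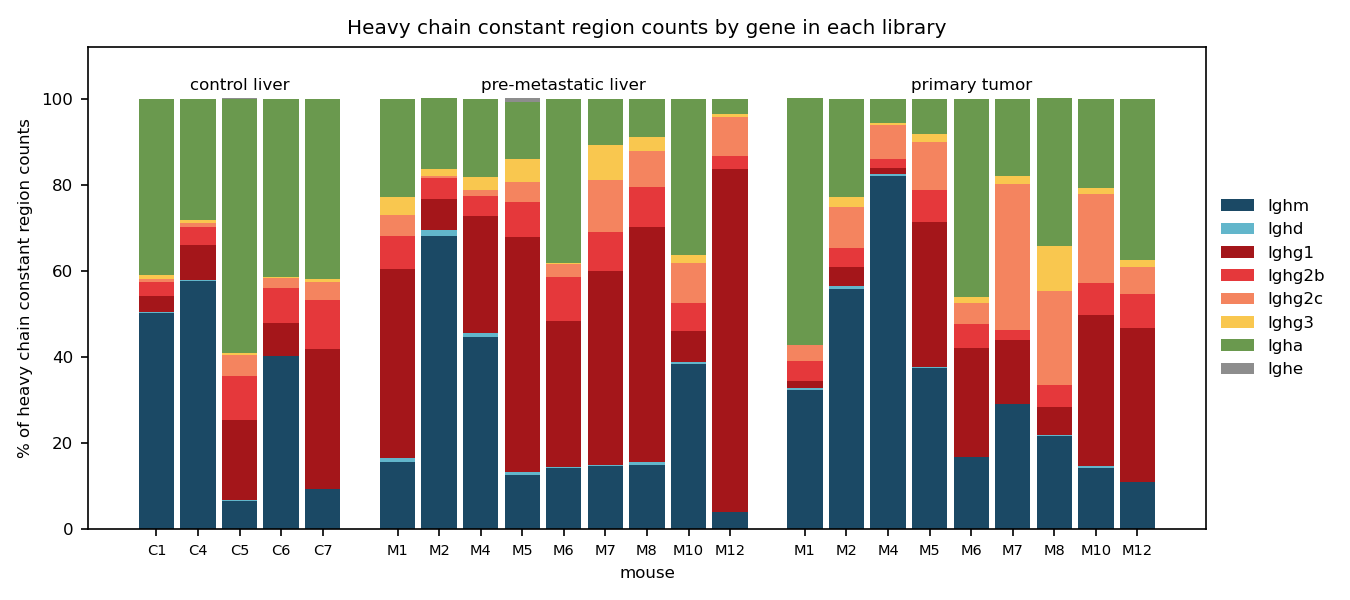
Share of each heavy chain constant region gene in all heavy chain constant region counts (vertical axis, percent) in each library, named by its mouse. Igha and Ighm make up most of the bars in control liver, with medians of 41.5% and 40.1%, and Ighg1 has its largest median, 43.9%, in pre-metastatic liver.

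Across the 9 tumor-bearing mice, 4 pairs of genes were followed in each tissue, 8 relations in all, on log2(RPKM + 0.1), with exact two-sided permutation p adjusted over the 8. In pre-metastatic liver, Jchain and Mzb1 went together (r = 0.95, adjusted permutation p = 0.00165, rho = 0.87, adjusted permutation p = 0.0180, n = 9), as did Ms4a1 and Cd79a (r = 0.88, adjusted permutation p = 0.00628, rho = 0.83, adjusted permutation p = 0.0220). Leaving out the 2 mice farthest from the median of the first-named gene, which also narrows its range, left r at 0.88 and 0.82. Cd79a, a gene of the whole B lineage, also went with Jchain (r = 0.78, adjusted permutation p = 0.0192, rho = 0.87, adjusted permutation p = 0.0180), with r = 0.91 without 2 mice. Cd79a and Cd79b, partners in the same receptor, gave r = 0.81 (adjusted permutation p = 0.0155) and rho = 0.68 (adjusted permutation p = 0.0805). Without 2 mice r was 0.42, or 0.58 on log2(RPKM + 1).

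In the tumors, Cd79a and Jchain stayed together (r = 0.92, adjusted permutation p = 0.00448, rho = 0.78, adjusted permutation p = 0.0344, n = 9, r = 0.85 without 2 mice). Ms4a1 and Cd79a gave r = 0.80 (adjusted permutation p = 0.0192) and rho = 0.58 (adjusted permutation p = 0.144), with r = 0.79 without 2 mice. Jchain and Mzb1 gave r = 0.72 (adjusted permutation p = 0.0351) and rho = 0.48 (adjusted permutation p = 0.194), and r fell to 0.30 without 2 mice. Cd79a and Cd79b gave r = 0.60 (adjusted permutation p = 0.0854) and rho = 0.55 (adjusted permutation p = 0.152), and r fell to 0.10. Over all 36 pairs of the 9 genes in both tissues, with rank correlations adjusted over 72 relations, Cd79a with Pou2af1 (rho = 0.92) and Pou2af1 with Jchain (rho = 0.93) passed in the liver (adjusted permutation p = 0.0472 for both), and none passed in the tumor.

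The plot of all pairs shows a core of 5 genes, Ms4a1, Cd79a, Pou2af1, Jchain, and Mzb1, whose 10 pairs had rho of 0.50 to 0.93 in the liver (median 0.85) and 0.17 to 0.80 in the tumor (median 0.56). The core was picked from these same values, so they describe it and do not test it. Its border is not sharp: in the liver, Ms4a1 with Pax5 (rho = 0.80) and Cd79a with Cd79b (rho = 0.68) lay outside it. Sdc1 and Tnfrsf17 also stood outside the core. Pairs with Tnfrsf17 had a median rho of -0.12 in the liver, where its counts are 0 to 3, and of 0.22 in the tumor, where the highest was with Cd79b (rho = 0.83, adjusted permutation p = 0.0850 over the 72). Pairs with Sdc1 had a median rho of 0.37 in the liver and 0.08 in the tumor. Pairs with Pax5 had a median rho of 0.41 in the liver and 0.25 in the tumor. The correlation of these genes within a tissue was not compared between the tissues by a test.

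**Figure D5:**
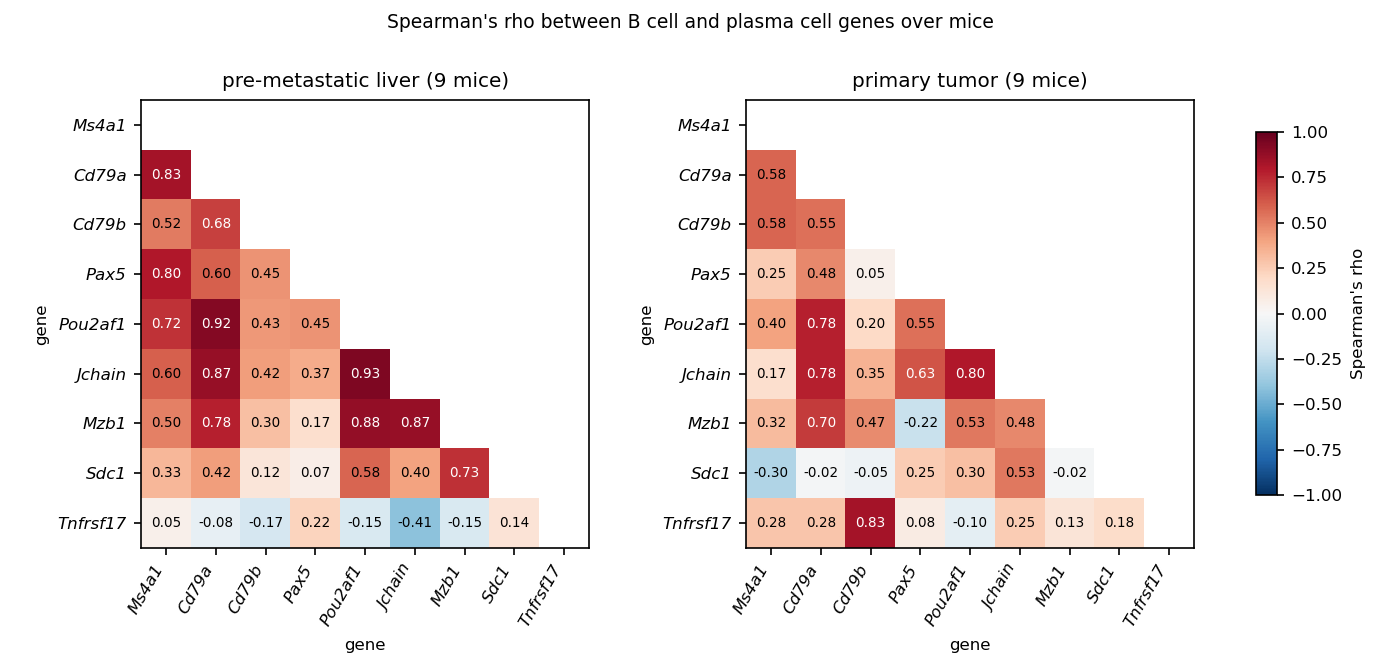
Spearman's rho (color scale and printed values) between each pair of the 9 genes over the 9 pre-metastatic livers and over the 9 primary tumors. The pairs among Ms4a1, Cd79a, Pou2af1, Jchain, and Mzb1 have a median of 0.85 in the liver and 0.56 in the tumor, and the rows of Sdc1 and Tnfrsf17 have their highest values with Mzb1 in the liver (0.73) and with Cd79b in the tumor (0.83).

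The genes most like Cd79a and Jchain were sought among all genes with enough counts in a tissue, by Pearson's r over the 9 libraries, as a description and without a test. In pre-metastatic liver, of 16205 genes, the genes most like Cd79a included the BAFF receptor Tnfrsf13c (r = 0.945), Cxcr5 (r = 0.923), Rpa2 (r = 0.914), and Neurl1a (r = 0.905), and Ms4a1 and Pou2af1 came at places 12 and 13. Jchain was most like Igkv19-93 (r = 0.979), Igkc (r = 0.976), Igkv3-4 (r = 0.971), Pou2af1 (r = 0.970), and Igkv10-96 (r = 0.969), with Mzb1 at place 8 and Cd79a at place 137. B cell genes and immunoglobulin genes thus headed separate lists in the liver.

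In the tumors, of 17777 genes, the lists ran into each other. Cd79a was most like Gm40897 (r = 0.967), Clstn3 (r = 0.936), Igkv10-96 (r = 0.929), Nutf2 (r = 0.929), and Pou2af1 (r = 0.926), with Jchain at place 6, Ms4a1 at place 74, and Cd79b at place 806. Jchain was most like Igkv10-96 (r = 0.959), Med28 (r = 0.935), Iglc2 (r = 0.933), Gm40897 (r = 0.927), and Igkc (r = 0.926), with Cd79a at place 6. The high value of tumor M10 in both genes enters all these correlations.

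Whether a mouse with more of a transcript in its liver also had more in its tumor was asked of each of the 9 genes. No gene passed over the 9 relations. Sdc1 came closest (r = 0.72, exact permutation p = 0.0242, adjusted 0.217, n = 9), but its ranks did not follow (rho = 0.30, exact permutation p = 0.437, adjusted 0.678). For the others r lay between -0.53 (Mzb1) and 0.56 (Pax5), and the Pax5 value turned to -0.81 when 2 mice were left out. Values within the clock phases left the same gene, Sdc1, alone under an unadjusted p of 0.05 (r = 0.73, exact permutation p = 0.0382). With 9 mice, relations of moderate size could not be detected.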

How the data were processed

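Poly(A) RNA of 23 libraries was sequenced, and the authors deposited read counts and RPKM values per gene. Per the labels, the submitters' processing notes name HISAT2, HISAT, HTSeq 0.6.0, and mm10. Whether counting used strand is not given in the sources used here. The RPKM values, as deposited, equal counts scaled by gene length and library total (largest relative error of a recomputation 1.75e-06). The 9 genes and all lists were chosen with earlier results of these data known.

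Counts were tested with edgeR 4.0.16 in R 4.3.3, with TMM factors and the quasi-likelihood F-test, on genes that reached 10 counts in 5 or more libraries of the comparison, and p-values were adjusted by the method of Benjamini and Hochberg. Each comparison was fitted on its own libraries, without a block. Tumor and liver from 1 mouse carry the same number in the labels and come from the same animal. Over 12748 genes, the deviations of such pairs correlated at 0.0760 on average (-0.0820 to 0.259), against -0.00968 for other pairs. Alternatives were a block for the mouse, library totals, upper-quartile factors, DESeq2 1.42.0, limma-voom (limma 3.58.1), no filter, 1 fit of all libraries, each clock phase, exact rank-sum tests on RPKM, and leaving out each library. Library totals, and all pairs of the 9 genes, were added after the data were seen. The early and late clock phases were separated at an index of 0.5.

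Correlations used log2(RPKM + 0.1) and exact permutation tests (scipy 1.17.1). The edgeR step was tested on simulated data. Within a group each sample was taken as 1 animal, and no 2 libraries of a group agreed within sampling noise. Named were the 9 genes, all genes of the immunoglobulin, survival, and plasma cell factor lists, and of each other list the 3 genes with the largest absolute log2 fold change among those called. Other list genes were named after their values were seen. Values of some genes that this rule would name are not reported here. The precision of the least read genes is limited by counting error, which totals of 44587556 to 79773163 counts leave large for genes with under 10 counts. Mzb1 lies on chromosome 18, and its coordinates and sequence are not given here.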

Additional observations from a re-analysis of the deposited data

Results flagged for a closer look

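In 6 of the 27 groups examined, 1 library stood far above the rest. Its gap to the next library was 0.539 to 0.761 of the range of the group. These gaps were taken on RPKM without logs, and how often chance produces them was not tested. The primary tumor of mouse M10 did so in 5 genes. It had 0.473 RPKM of Ms4a1 against 0.14 in the next tumor, 2.08 RPKM of Cd79a against 0.748, 1.08 RPKM of Pou2af1 against 0.300, 10.4 RPKM of Jchain against 3.65, and 2.13 RPKM of Mzb1 against 0.678. These genes are the core picked above from their rank correlations, and the 5 values describe 1 library and not 5 events. The pre-metastatic liver of mouse M1 had 3.28 RPKM of Cd79b against 1.68 in the next liver.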

How the results depend on the processing

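Library totals moved the tumor comparisons most. Against pre-metastatic liver they gave 13352 genes higher and 4206 lower, 3 of the 9 genes lower, and Pax5 at 0.82 in place of -0.32. Against control liver they gave 12859 higher and 4130 lower, 3 of the 9 genes higher and 1 lower, Cd79a at 0.94, and Mzb1 at 0.26. The scale is the cause here by construction. With the replicate block, which pairs the tissues of a mouse, 8670 genes were higher and 7659 lower, Ms4a1 was at -2.99, and no call among the 9 genes changed. With the block and library totals together, 13326 genes were higher and 4149 lower, 3 of the 9 genes were lower, and Pax5 was at 0.75.

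For the livers, DESeq2 called 6 of the 9 genes higher and limma-voom 1, against 3, and leaving out 1 library gave 2 to 5 (5 without pre-metastatic mouse M2). For the tumor against pre-metastatic liver, the early clock phase gave 0 genes higher, because Tnfrsf17 was not tested there, and the late phase 2 lower. Pax5 was at 0.34 by the difference that goes with the rank-sum test and at -0.61 to 0.32 when 1 library was left out, and the cause was not tested.

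For the tumor against control liver, 1 of the 9 genes was lower with upper-quartile factors, with no filter, and with all libraries in 1 fit, since Jchain no longer passed, and 2 were higher with DESeq2. The early phase gave 0 higher, because Tnfrsf17 was not tested there. Values near 0 changed sign: Cd79a was at 0.05 with upper-quartile factors and 0.62 by the rank-sum test, Cd79b at -0.02 with limma-voom and -0.11 in the early phase, and Pou2af1 at -0.47 and -0.89 there. Leaving out 1 library gave 1 to 2 genes higher, 1 to 4 lower, Cd79a at -0.63 to 0.10, Cd79b at -0.09 to 0.23, and Pou2af1 at -0.72 to 0.33. The cause was not tested. With ranks, 0 in place of 1 gene was related between the tissues of a mouse at an unadjusted p under 0.05. Low counts limit Tnfrsf17 in liver and Pax5 and Ms4a1 in both tissues.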
